A study of Mus musculus with 12 samples.

Results

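RbFox1 eCLIP peaks of human transcripts often lie side by side, and the peaks described here are those that stand in groups of 4 to 9. Peaks of the same chromosome and strand were joined into 1 group while the next peak started at most 500 nt after the furthest end reached so far, and every peak of a group with 4 to 9 peaks was taken. The members were thus chosen by the positions of peaks alone. There were 10566 such peaks in 1949 groups, which is 42.6% of the 24831 human peaks deposited and 19.9% of all 9787 groups, where a peak standing alone counts as a group. The 3 lists of the series, 2 of which are of the minigene, hold 24855 peaks in all. All listed peaks had already passed the comparison of +Dox with No Dox, so the numbers of peaks and their enrichment come from the contrast that chose them. These values are therefore given as a description, with no test.

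The cells were T-REx-293, a human embryonic kidney line in which doxycycline switches on an inducible RbFox1 gene, and they carried a BAC minigene of the mouse Ntrk2 (TrkB) locus. The human list compares 2 immunoprecipitated libraries of the 77-5 clone, with the intact (WT) minigene, given doxycycline for 48 h (+Dox), against 2 libraries of the same clone without it (No Dox). All 4 libraries come from 1 clone, and the labels do not say whether replicates were separate cultures. The dose is 0.5 mg/ml in the labels and the methods, while the figure legends of the study give it in μg/ml. The series also has 2 +Dox libraries of the 32-1 clone, whose minigene lacks Cluster 1 and Cluster 2, a deletion taken from the figure legends since the labels name only the clone. Its 6 input libraries are all labelled as untreated controls, with no clone named, and were put in no group. Neither kind is compared in the human list, though whether inputs were used in forming the list is not given.

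RbFox proteins are splicing regulators with a single RNA recognition motif that binds the sequence (U)GCAUG. In the nucleus they sit mostly on introns and, depending on where they bind, promote or repress the use of a nearby exon. In the cytoplasm they also bind 3′ UTRs. eCLIP maps such contacts by crosslinking protein to RNA with ultraviolet light, pulling the protein down with an antibody and sequencing the RNA fragments that come with it. A run of neighbouring peaks can arise where several binding sites stand close together, and also where a peak caller divides 1 broad region of reads.

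Each peak has 1 log2 fold enrichment and 1 −log10 p, both computed by the authors from the reads of +Dox against No Dox and merged over replicates. No value for a single library was used, so neither the depth nor the spread between replicates is known, and no difference given below could be set against replicate error. Listed peaks start at a log2 fold enrichment of 3.0, which is 8.0-fold, and at a −log10 p of 3.0. A peak below either is not listed, so a group may hold weaker peaks that are not seen. Enrichment was measured between immunoprecipitated libraries of both conditions, and a change in the amount of a transcript and a change in its binding cannot be told apart in it. No human genome sequence or annotation was used, so groups are named by their position in hg38, with the first base of a chromosome counted as 1.

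The groups of 4 to 9 held the largest share of the peaks but were fewer than single peaks or pairs and triplets. There were 709 groups of 4 peaks, 468 of 5, 326 of 6, 215 of 7, 150 of 8 and 81 of 9. The number of groups thus became smaller at each added peak. Single peaks numbered 4566, groups of 2 or 3 held 7314 peaks in 3083 groups, and groups of 10 or more held 2385 peaks in 189 groups. Just outside the limits there were 1148 groups of 3 and 67 groups of 10, so both limits cut a continuous decline.

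**Figure D1:**
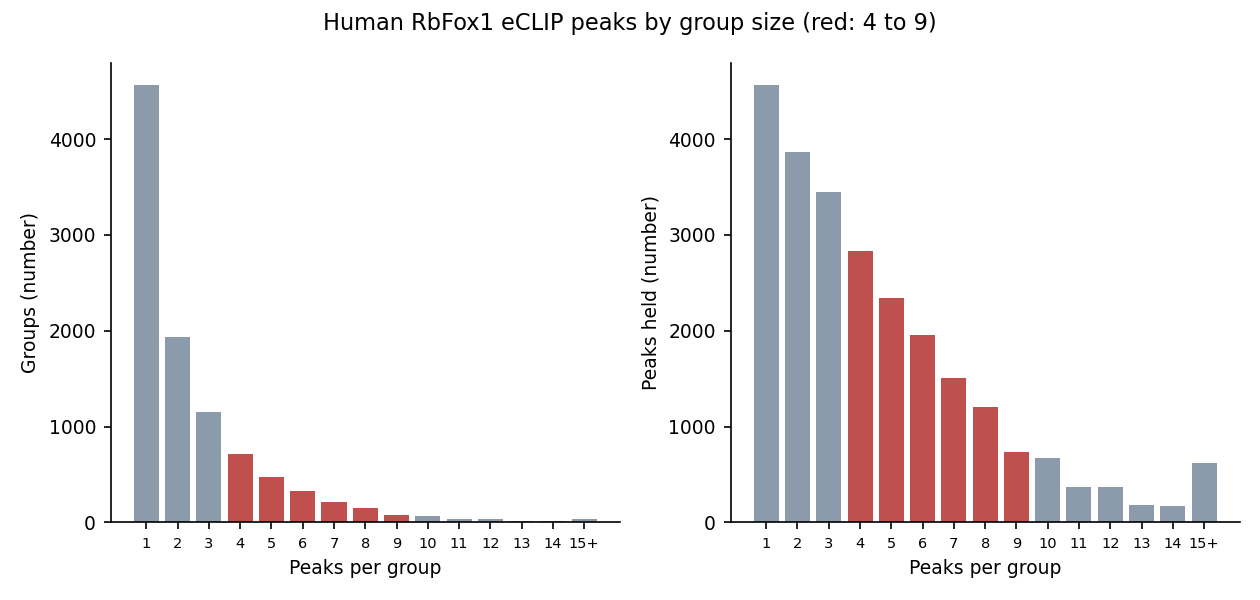
Number of groups (left) and number of peaks they hold (right) against the number of peaks per group, with sizes from 15 upward in 1 bar. The red bars are the groups of 4 to 9, which fall from 709 groups of 4 to 81 groups of 9 and hold 10566 peaks.

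Peaks in groups of 4 to 9 had a median log2 fold enrichment of 3.80 (quartiles 3.42 and 4.27), which is 13.9-fold over No Dox. Single peaks had a median of 3.45, groups of 2 or 3 of 3.58 and groups of 10 or more of 4.08, so the groups of 4 to 9 lay between their neighbours in size, and the quartiles of all 4 classes overlapped. Of the peaks in groups of 4 to 9, 36.6% (3867) passed a stricter threshold than that of the list, with p not above 1e-05 and log2 fold enrichment not below 4. Over the whole list 29.0% of peaks did. With 5 in place of 4, the shares were 5.39% of the members and 4.33% of the whole list. The shares were 11.2% for single peaks, 20.8% in groups of 2 or 3 and 54.8% in groups of 10 or more. Since the groups and the enrichment come from the same list, nothing is read from this order.

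Among the members the median enrichment was higher in larger groups, with 1 exception. It was 3.70 in groups of 4, 3.76 in groups of 5, 3.84 in groups of 6, 3.79 in groups of 7, 3.92 in groups of 8 and 4.01 in groups of 9. Groups of 7 lay below groups of 6. On either side of the limits the median was 3.63 in groups of 3 and 3.97 in groups of 10, the latter below that of groups of 9. The share of peaks past the stricter threshold ran from 30.7% in groups of 4 to 50.5% in groups of 9.

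**Figure D2:**
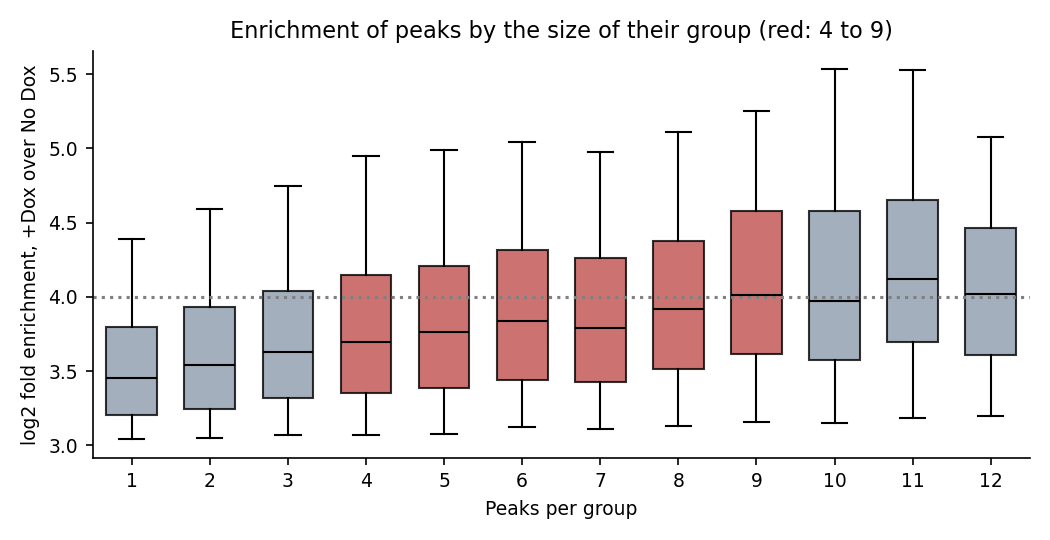
Log2 fold enrichment of +Dox over No Dox for single peaks and for peaks in groups of 2 to 12. Boxes give the quartiles and median over peaks, whiskers the 5th and 95th percentiles, the dotted line the stricter threshold of 4, and red boxes the groups of 4 to 9, whose medians run from 3.70 to 4.01.

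Other measures of the peaks moved with group size too. The median −log10 p was 5.62 for single peaks, 7.86 in groups of 2 or 3, 13.1 in groups of 4 to 9 and 33.3 in groups of 10 or more. The peaks became narrower in the same order, with median widths of 98, 88, 76 and 57 nt. The share of peaks whose log2 fold enrichment was exactly that of at least 1 other peak of the list was 79.7% for single peaks, 68.8% in groups of 2 or 3, 47.5% in groups of 4 to 9 and 17.4% in groups of 10 or more. Exact repeats can occur when a ratio is formed from small whole numbers of reads. The part of read depth in the differences between classes was not tested.

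Set side by side within a band of −log10 p, the classes differed least where the p was weakest. Between 3 and 5, the median log2 fold enrichment was 3.44 for 1870 single peaks and 3.50 for 802 peaks in groups of 4 to 9. Between 5 and 10 it was 3.47 for single peaks and 3.64 for 2930 peaks of the groups of 4 to 9. Between 10 and 20 the values were 3.50 and 3.87, and between 20 and 50 they were 3.34 and 3.98, the former for 178 single peaks. Single peaks thus kept nearly the same median across these bands, while the median of the groups of 4 to 9 was higher in each band than in the one before. In the same bands, groups of 2 or 3 had medians of 3.51, 3.58, 3.68 and 3.58. Groups of 10 or more had 3.47, over 9 peaks, then 3.63, 3.83 and 4.11. They thus rose as well, and lay above the groups of 4 to 9 only in the last of these bands. The −log10 p depends on both reads and enrichment, so the bands do not hold depth constant.

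A group of 4 to 9 peaks was typically a short stretch with peaks over most of it. The median span was 627 nt (quartiles 481 and 791, from 88 to 1821 nt), and the peaks covered a median of 420 nt and 71.3% of the span. The median span was 500 nt in groups of 4, 589 nt in groups of 5, 674 nt in groups of 6 and 782 nt in groups of 7, and then lay at 812.5 nt in groups of 8 and 810 nt in groups of 9. Larger groups therefore had more peaks per length, with median peak widths of 82 nt in groups of 4 and 65 nt in groups of 9. The median density was 8.66 peaks per 1000 nt (quartiles 6.88 and 10.5).

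Many neighbours within the groups touched. Of the 8617 pairs of neighbouring peaks, 3498 (40.6%) had no base between them, against 30.2% in groups of 2 or 3 and 58.9% in groups of 10 or more. No pair overlapped. In the other 5119 pairs the median gap was 48 nt (quartiles 18 and 110), and the largest was 499 nt. Counted as blocks of touching peaks, a group had a median of 4 blocks. There were 75 groups (3.85%) that formed 1 block with no gap at all and 302 groups (15.5%) in which no peaks touched, so most groups mixed both.

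The distance of 500 nt was not close to the gaps of most groups. The largest gap within a group had a median of 109 nt and was at most 100 nt in 913 groups (46.8%). It lay between 401 and 500 nt in 114 groups (5.85%), which a slightly shorter distance would split. On the outer side, the nearest same-strand peak was 501 nt away in the closest case, and 74 groups (3.80%) had one within 600 nt, which a slightly longer distance would join.

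Peaks that lay next to each other differed by a median of 0.37 in log2 fold enrichment when they touched. The median difference was 0.34 at gaps of 1 to 10 nt, 0.43 at 11 to 50 nt, 0.41 at 51 to 100 nt, 0.47 at 301 to 400 nt and 0.45 at 401 to 500 nt. Every band beyond 10 nt thus had a larger median than touching neighbours, while the quartiles of all 8 bands overlapped. Peaks of a group lie close together on 1 strand and come from the same libraries, so they are not replicates of one another.

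**Figure D3:**
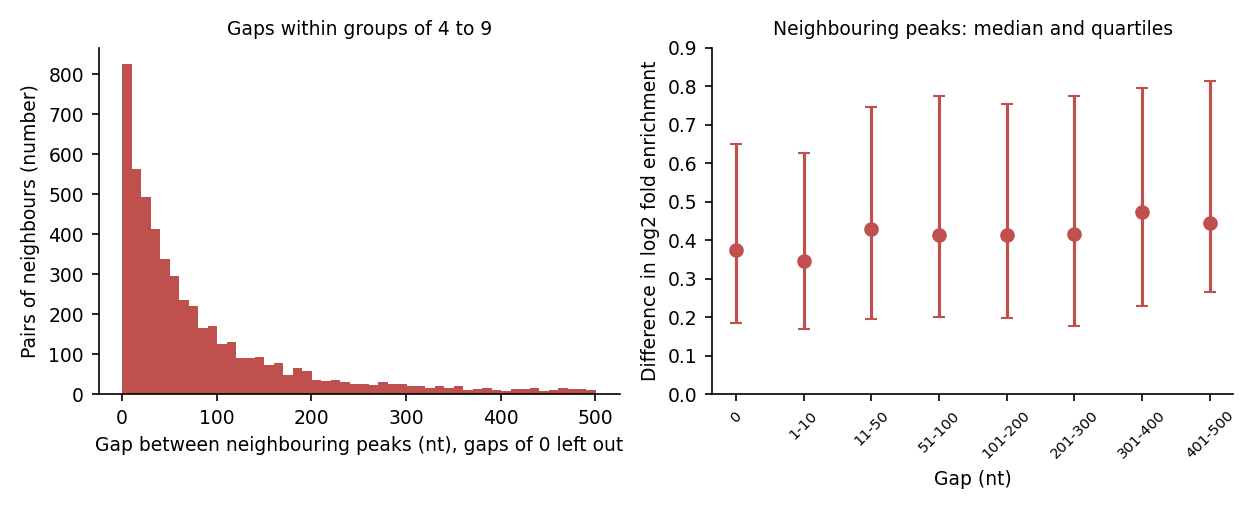
Left, number of neighbouring peak pairs in groups of 4 to 9 against the gap between them in nt, in bins of 10 nt and without the 3498 pairs that touch. Right, size of the difference in log2 fold enrichment between neighbours by gap, as median (point) and quartiles (bars), whose median lies between 0.34 and 0.47 in all bands.

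Most groups combined strong and weak peaks. The highest peak of a group exceeded the lowest by a median of 1.05 on the log2 scale (quartiles 0.75 and 1.40), and by more than 1 in 1050 groups (53.9%). In 1341 groups (68.8%) some but not all peaks passed the stricter threshold, in 108 (5.54%) all did and in 500 (25.7%) none did. Some but not all passed in 30.8% of groups of 2 or 3 and in 86.8% of groups of 10 or more. All passed in 5.77% and 7.94% of these, and in 8.31% of all groups, single peaks included. The highest peak exceeded the lowest by a median of 0.46 in groups of 2 or 3 and 1.53 in groups of 10 or more. Mixing and range thus rose with the number of peaks held, and are not particular to the members. The SD of log2 fold enrichment was 0.61 over all member peaks and 0.48 within groups, and 37.5% of the variance lay between groups. The medians of the groups ran from 3.05 to 5.78 (quartiles 3.51 and 4.12). The peak with the highest enrichment was also the one with the highest −log10 p in 719 groups (36.9%). Ties for either were given to the peak nearest the 5′ end. Counted so, enrichment and p often pointed to different peaks of a group.

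Peaks that touched a peak on both sides were the more enriched ones. The 1189 peaks with a touching neighbour on both sides had a median log2 fold enrichment of 4.05, the 4618 with 1 such neighbour 3.83 and the 4759 with none 3.71. Their shares past the stricter threshold were 52.4%, 38.5% and 30.8%. Inside groups, only the peaks with 2 touching neighbours and those with none were compared. In 571 groups that held both kinds, the mean of the peaks with 2 touching neighbours exceeded that of the peaks with none in 386 (67.6%), with a median difference of 0.27 (quartiles −0.15 and 0.65). The median −log10 p moved with it, at 20.9, 15.3 and 10.2, and the share of exactly repeated enrichment values was 30.2%, 41.4% and 57.8%. A peak touched on both sides is always an inner peak of its group, while those with no touching neighbour include first and last peaks. The parts of place in the group and of read depth in this order were not tested.

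Along the RNA, from 5′ to 3′, both ends of a group had a lower median enrichment than its pooled inner peaks, in each size. In groups of 4 the medians were 3.65 at the first, 3.74 at the inner and 3.63 at the last peaks, and in groups of 9 they were 3.78, 4.08 and 3.87. The inner peaks exceeded the first by 0.07 to 0.29 and the last by 0.05 to 0.20 over the 6 sizes. Single inner places could lie below an end, as the fourth peak in groups of 8 did (3.86, against 3.88 at the last). Pooled over sizes the medians were 3.70, 3.84 and 3.72, a gap that also holds the larger share of inner peaks in larger groups. The first peak was higher than the last in 956 of 1949 groups (49.1%), with a median difference of −0.02 for first minus last. In groups of 4, the highest peak was the first in 22.1%, the second in 28.5%, the third in 24.3% and the last in 25.1%. In the 81 groups of 9, the third place held the highest peak most often, in 16 groups, and the first and the fourth least often, in 5 each. The −log10 p had a similar shape, with medians of 11.7 at the first, 14.2 at inner and 11.4 at the last peaks, pooled over sizes. Its highest value fell on the last peak in 154 of 709 groups of 4, 70 of 468 groups of 5, 46 of 326 groups of 6, 11 of 215 groups of 7, 9 of 150 groups of 8 and 9 of 81 groups of 9. An even share over places would be 1 in 4 for groups of 4 and 1 in 9 for groups of 9. As counted, the last place was below it in each size but 9, where it was equal. Ties for the highest enrichment or −log10 p were given to the peak nearest the 5′ end, so a last peak that tied was never counted. The first and the last peak had equal −log10 p in 11 groups. How much of the shortfall comes from this rule was not tested.

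**Figure D4:**
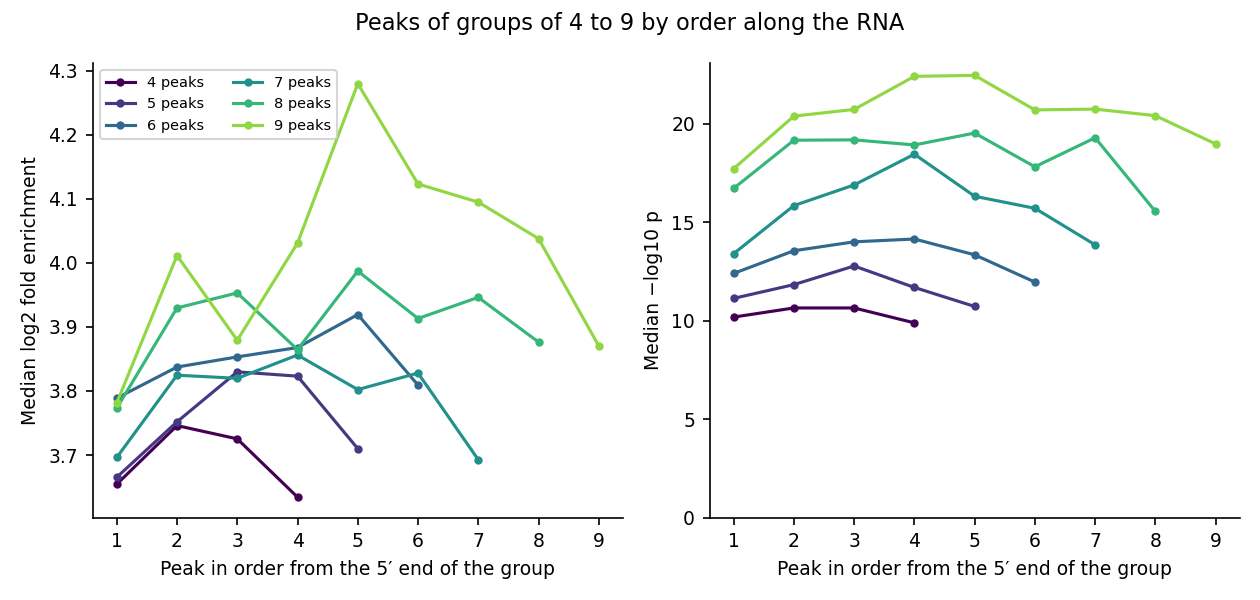
Median log2 fold enrichment (left) and median −log10 p (right) of the peaks of groups of 4 to 9 against their order from the 5′ end of the group, with 1 line for each group size. In each size the first and the last peak have a lower median −log10 p than the middle of the group, and the enrichment axis spans less than 1 log2 unit.

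The enrichment of a member peak had little relation to its width. Over the 10566 peaks Pearson's r was 0.11 and Spearman's rho 0.10, and between enrichment and −log10 p they were 0.02 and 0.24. The latter include 132 peaks at a −log10 p of 400, whose median enrichment was 3.56, while no other member exceeded 131.5. Below 100, the median enrichment of the members rose from 3.50 between 3 and 5 to 4.01 between 50 and 100. The low Pearson's r thus does not show that enrichment and −log10 p were unrelated. All points share the same libraries, so these are descriptions. By width, the median log2 fold enrichment ran from 3.64 for the 160 peaks of at most 20 nt to 3.99 for the 354 peaks over 150 nt.

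Groups of 4 to 9 were found on all 23 chromosomes of the list and on both strands, 1037 on + and 912 on −. They made up 26.0% of the groups of chromosome 17, 25.2% on chromosome 21 and 24.8% on chromosome 19, and 16.7% on chromosome 18, 16.8% on chromosome 4 and 17.0% on chromosome 2. Chromosome 1 had the most, 185. The median enrichment of the member peaks was lowest on chromosome 22, at 3.65, and highest on chromosome 16, at 3.95. On each of the 23 chromosomes it was above the median of all peaks of that chromosome, the members included. Over the whole list the members had 3.80 and all peaks 3.68, so nothing more is read from the chromosomes. Groups of 10 or more, at 4.08 over the whole list, were not set apart by chromosome. The unlocalized scaffold of chromosome 14 in the list had no group of this size.

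The nearest same-strand peak outside a group was a median of 11810 nt away (quartiles 1956 and 66021). It was within 10000 nt for 929 groups of 4 to 9 (47.7%), against 44.6% of single peaks, 49.0% of groups of 2 or 3 and 54.5% of groups of 10 or more. When groups of any size with at most 10000 nt between them were chained, 337 groups of 4 to 9 (17.3%) shared a chain with another of their kind. There were 135 chains with 2 of them, 21 with 3 and 1 with 4. The chain with 4 lies on the + strand of chromosome 11, from 134359149 to 134378224, and holds no other group. Its groups had, from 5′ to 3′, medians of 3.94, 3.74, 4.16 and 3.19, with 7, 7, 7 and 5 peaks, so the last was the weakest and had no peak past the stricter threshold.

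Peaks on the opposite strand overlapped 3 of the 1949 groups (0.15%). Over all 9787 groups they overlapped 4 (0.04%), the other being a single peak. In 1 place, on chromosome 17, a group of 8 peaks on the + strand from 6908712 to 6910046 and a group of 5 peaks on the − strand from 6908726 to 6909437 overlapped each other. The + strand peaks had a median of 3.59 and the − strand peaks of 4.48, while the −log10 p reached 51.5 on + and 19.7 on −. The third group, with 6 peaks and a median of 4.03, lies on the + strand of chromosome 19 from 41318954 to 41319531, and 1 peak of the − strand falls on it.

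The 10 groups with the highest median enrichment had medians from 5.35 to 5.78, or 40.9-fold to 54.9-fold, and every one of their peaks passed the stricter threshold. That threshold cuts the same enrichment by which these groups were chosen, so their passing is largely set by the choice. All peaks passed in 5.54% of the groups of 4 to 9 and in 8.31% of all groups. The highest lies on chromosome 20, on the + strand from 3004411 to 3005035. Its 8 peaks had, from 5′ to 3′, log2 fold enrichments of 5.25, 6.33, 6.49, 5.95, 5.45, 6.10, 5.61 and 4.94. The strongest peaks were thus the second and the third, and the last was the weakest. They cover 540 of 625 nt, and their −log10 p ran from 19.2 to 55.3.

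Next was a group of 5 peaks on the − strand of chromosome 5, from 179598771 to 179599478. It had log2 fold enrichments of 5.83, 5.69, 6.22, 5.37 and 5.28, a median of 5.69, with the highest value in the middle. No other same-strand peak of the list is within 200164 nt of it, the nearest being at that distance. The third lies on chromosome 2, + strand, from 171706361 to 171707152, and had 9 peaks of 5.96, 5.66, 5.38, 5.11, 5.56, 5.67, 5.06, 5.54 and 5.15. They span a range of 0.90, so this group was both large and even. The fifth peak reached a −log10 p of 400, the highest value in the list.

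On chromosome 16, from 1576718 to 1577142 on the − strand, 5 peaks touched without a gap over 425 nt, with log2 fold enrichments of 5.50, 4.76, 4.63, 5.52 and 5.82. Both ends were higher than the middle here. The group of 4 peaks on chromosome 13, − strand, from 113446463 to 113447459, had 4.99, 5.43, 5.92 and 5.49, and held a peak of 272 nt, the widest among all members. On chromosome 19, + strand, from 46389607 to 46389974, 5 peaks had 6.32, 5.55, 5.46, 4.19 and 5.23, the first being the highest. The 4 touching peaks on chromosome 1, + strand, from 27344873 to 27345215, had 4.63, 5.19, 5.89 and 5.70.

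The other 3 of the 10 lie on chromosomes 7, 10 and 2. On chromosome 7, + strand, from 44763829 to 44764385, the 5 peaks had log2 fold enrichments of 4.30, 4.66, 5.52, 5.37 and 5.82, with −log10 p from 5.47 to 38.7. The 6 peaks on chromosome 10, + strand, from 24541400 to 24542048, had 5.40, 5.32, 5.63, 4.98, 4.67 and 5.99. The next same-strand peak is 515 nt away from them, just past the joining distance. On chromosome 2, − strand, from 219553657 to 219554449, the 6 peaks had 4.71, 4.28, 5.13, 6.60, 5.58 and 5.58. The range of 2.32 there was the widest of the 10 groups.

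In 8 groups of 9 peaks all 9 passed the stricter threshold. After the group of chromosome 2 above, the most enriched of these was on the + strand of chromosome X, from 9688353 to 9689162, with 6.49, 6.03, 4.03, 5.12, 5.86, 4.80, 4.52, 5.21 and 4.61. Its strongest peaks were at the 5′ end. Another on chromosome X, − strand, from 49087617 to 49088856, had a median of 5.09 and its highest peak, 6.05, at the eighth place. On chromosome 20, − strand, from 51693010 to 51693709, the 9 peaks lay between 4.52 and 5.48. On chromosome 16, + strand, from 89884679 to 89885496, they lay between 4.29 and 5.55.

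The single most enriched member peak, at 6.78 or 109.9-fold, stood in a group that was otherwise mixed. It is the fourth of 5 peaks on the + strand of chromosome 12, from 864939 to 865426. The peaks had log2 fold enrichments of 3.27, 3.42, 5.22, 6.78 and 5.16, and −log10 p of 7.44, 5.76, 52.9, 131.5 and 8.27. The first and the second peak were thus close to the floor of the list, and the range of 3.51 was the widest among all 1949 groups. This group was chosen after its values were seen.

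The 3 widest groups were chosen by span, while those just above were chosen by enrichment. Their medians lay above, below and within the quartiles of all group medians, 3.51 and 4.12. The widest, 1821 nt on the + strand of chromosome 12 from 12747422 to 12749242, had 7 peaks of 3.87, 4.42, 4.08, 3.41, 4.82, 4.26 and 4.31, with a median of 4.26. Groups of 1760 nt on chromosome 8 (− strand, from 139755542 to 139757301, 7 peaks) and of 1716 nt on chromosome 10 (+ strand, from 102353717 to 102355432, 9 peaks) had medians of 3.42 and 3.81. Their largest gaps are 467, 487 and 352 nt, so a joining distance below these would split them.

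**Figure D5:**
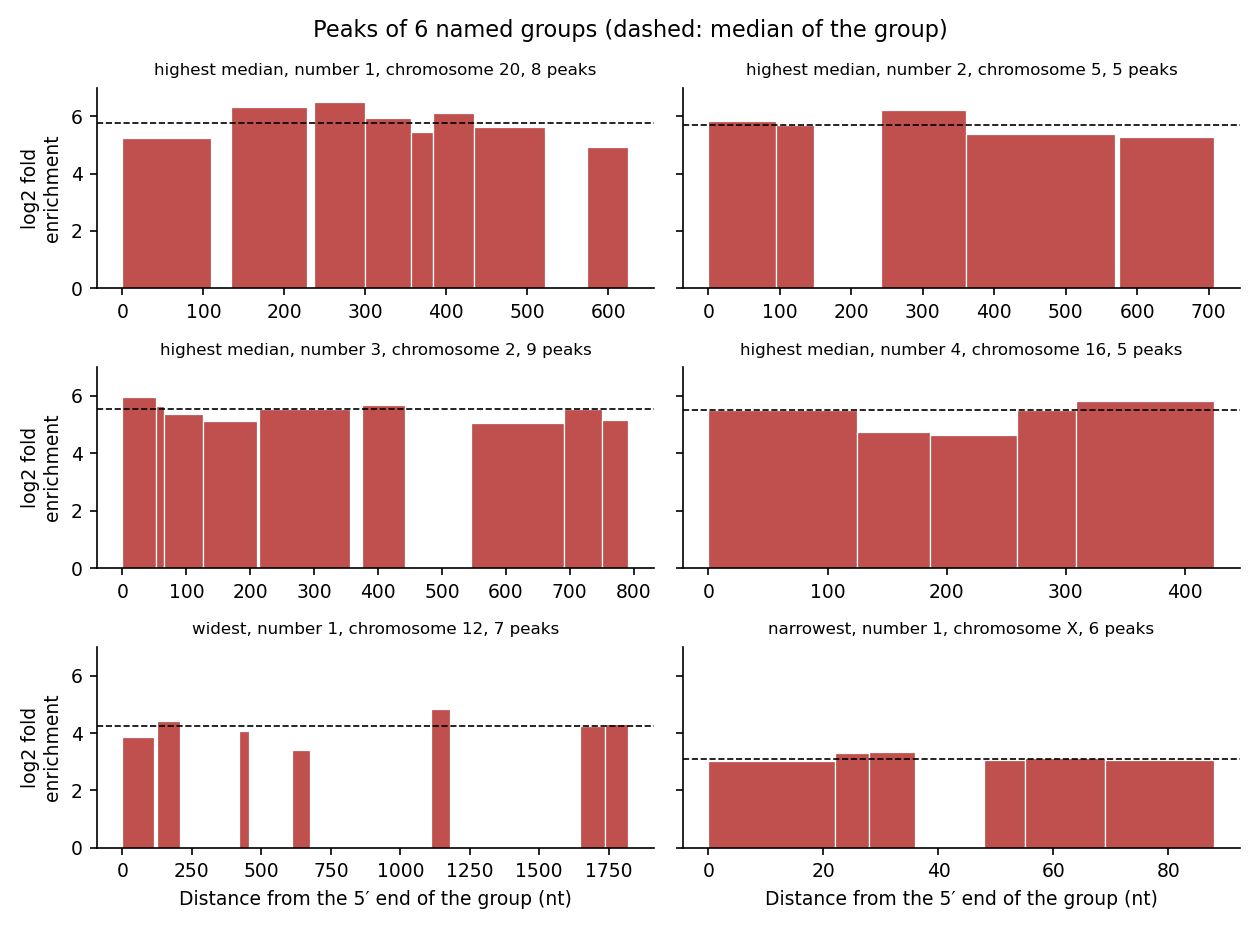
Log2 fold enrichment (height of a bar) of each peak (width of a bar) against the distance in nt from the 5′ end of the group, for the 4 groups with the highest medians, the widest group and the narrowest group. The dashed line is the median of the group, which is 5.78 on chromosome 20 and 3.09 for the narrowest group on chromosome X, and the horizontal axes differ in length.

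The 3 narrowest groups were all on the − strand of chromosome X within 24555 nt, from 73822322 to 73846876. Their spans were 88, 103 and 111 nt, for 6, 7 and 7 peaks. The 6 peaks of the narrowest, from 73846789 to 73846876, had log2 fold enrichments of 3.04, 3.30, 3.35, 3.05, 3.12 and 3.07 and widths of 22, 6, 8, 7, 14 and 19 nt. The whole stretch held 25 peaks, 24 of them in 4 groups of this size. Over these 24, the median width was 10 nt and the median log2 fold enrichment 3.35, with none over 3.93. All 25 had a −log10 p of 400. Low enrichment and the strongest p thus went together in this stretch.

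The list gave the −log10 p of 400 to 132 member peaks in 57 groups, and these had a median log2 fold enrichment of 3.56, against 3.81 for the other members. Without the 24 peaks of the stretch on chromosome X the median was 3.58 over 108 peaks. In groups of 10 or more, which hold 340 of the 510 peaks at 400, it was 4.36, above the 4.08 of all their peaks. Only 1 member peak had a value between 100 and 400, the peak of 131.5 on chromosome 12, and no peak of the whole list lay between 150.5 and 400, so peaks at 400 cannot be ranked by p. Exactly repeated enrichment values made up 2.27% of these 132 peaks. In 9 groups every peak was at 400, and their medians ran from 3.07, for 8 peaks on chromosome 14 (+ strand, from 105466748 to 105467600), to 3.83, for 4 peaks on chromosome 1 (− strand, from 8870656 to 8871031). In these 9 groups, which were chosen after their values were seen, 4 peaks passed the stricter threshold.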

How the data were processed

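The authors moved molecular identifiers into read names (umi_tools), trimmed adapters (cutadapt), set aside reads that mapped to repeats or rRNA, and aligned what remained to hg38 plus the minigene (STAR). Duplicates were then removed by identifier, and CLIPper called the peaks. The log2 fold enrichment that the authors deposited compares library-normalized reads of +Dox and No Dox, and the deposited −log10 p-value is of a chi-square test with Yates' correction (Fisher's exact test for low numbers). The deposited list holds 1 value per peak merged over replicates, and although the labels tag the list as IDR, how replicates were merged is not given in the sources used here. Without read counts in it, the depth is unknown, no interval can be formed for the enrichment of a peak, and no test was run. Positions were converted to count from 1.

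Peaks were sorted, joined across gaps of up to 500 nt and summarised with Python 3.11.15, pandas 2.3.3 and numpy 2.4.6. Plots were drawn with matplotlib 3.10.9. The grouping was tested on simulated data. Members, lists and rules were chosen with earlier results of these data known. The named groups are the 10 with the highest median enrichment, the 5 with the most peaks past the stricter threshold (ties by median), and the 3 widest and 3 narrowest, 20 groups in all as 1 is in both of the first sets. Rules that need genes, gene lists, motifs or gene regions could not be applied, since no human genome or annotation was used. The alternatives are other joining distances, the stricter threshold before grouping, touching peaks joined first, grouping without strand, and leaving out peaks at the highest −log10 p.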

Additional observations from a re-analysis of the deposited data

How the results depend on the processing

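No paired analysis was possible because each peak has 1 value merged over replicates, and for the same reason no replicate could be left out. Of 33 values recomputed under 7 alternatives, 10 were counted as unchanged, 23 moved and 0 turned direction. Only the difference between groups and single peaks could turn direction, since none of the other values can fall below 0. The 10 are 8 counts within 1.5 times the main count, a wide limit, and 2 other values equal to 2 decimals. A span had to be exactly equal to count as unchanged. A share had to lie between 35.7% and 37.5%, a 95% Wilson interval over the member peaks. That interval takes peaks as independent, though peaks of a group are not replicates. All other values counted as moved. The main values are 10566 peaks, 1949 groups, a median log2 fold enrichment of 3.80, a difference of 0.32 between the median of the groups and that of single peaks, a median span of 627 nt and a share of 36.6% past the stricter threshold.

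With a joining distance of 100 nt there were 7759 peaks in 1464 groups, the median enrichment was 3.86, the difference 0.37, the span 468 nt and the share 41.0%, and 913 of the 1949 groups (46.8%) stayed identical. With 1000 nt these values were 11257, 2049, 3.78, 0.31, 698 nt and 35.0%, and 1693 groups (86.9%) stayed identical. Grouping only peaks past the stricter threshold gave, by construction, fewer and stronger peaks, 2528 in 479 groups, with 4.55, 0.25 and 599 nt. Joining touching peaks first left 5537 peaks in 1147 groups, with 3.87, 0.37 and 772 nt. The counts thus depend on whether touching peaks are counted singly or joined. A joined region took the highest enrichment and −log10 p of its peaks, so its enrichment is, by construction, never below that of any of them. Without regard to strand the span was 627.5 nt. Without peaks at the highest −log10 p the values were 3.81, 0.33 and 631 nt. A log2 fold enrichment of at least 5 together with p not above 1e-05 was reached by 5.39% of the member peaks, against 4.33% of all peaks. Alternatives on motifs, gene regions and genes were not run, as no human genome or annotation was used.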
